A study of Saccharomyces cerevisiae with 4 samples.

Results

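Long terminal repeats (LTRs) of yeast Ty retrotransposons were measured by 442 of the 9275 non-control probe sets of the array, chosen as the probe sets whose target description names an LTR and does not say full length. They fell into 322 probe sets for LTRs of Ty1, 30 for Ty2, 48 for Ty3, 32 for Ty4 and 10 for Ty5, and covered 367 named elements and 1 element without a name. The unnamed Ty3 LTR was placed by the file on chromosome I at bases 182610 to 182949 (genome build not given). The descriptions do not say whether a repeat stands alone or flanks an intact Ty, so the label "solo" could not be checked and the members are called LTR probe sets here.

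Poly(A)-enriched RNA of Saccharomyces cerevisiae was hybridised to 4 arrays, 1 for each of 2 cultures at each of 2 times. One culture overexpressed KIN28, the kinase of transcription factor TFIIH, and the other POG1, a gene tied to recovery from pheromone arrest, and each was sampled at 0 min, before lithium, and 60 min after 200 mM LiCl at 25 °C in synthetic glucose medium. The series title concerns an rsp5 mutation, in the gene of a ubiquitin ligase, but the array labels give no RSP5 genotype, strain, promoter or plasmid. No culture with an empty vector and none left without lithium for 60 min is among the 4 arrays. There is 1 array per group, so no spread between replicates can be given and no test was run; each difference below compares a pair of arrays.

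A Ty element is copied through RNA like a retrovirus, and an LTR stands at each of its ends. The LTR holds the promoter and the end of the transcript, so the RNA of an intact element carries LTR sequence at both ends. Recombination between both LTRs of an element leaves one LTR behind, and most LTRs of the yeast genome are such remnants. The LTRs of Ty1 and Ty2 are called delta, those of Ty3 sigma, those of Ty4 tau and those of Ty5 omega. Ty1 RNA is abundant in haploid cells, Ty3 lies beside tRNA genes and its transcription responds to mating pheromone, and the Ty5 copies of this species are degenerate remnants.

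Signals are given as relative signal, the deposited intensity divided by the median of its array, so that 1 is the middle probe set. For differences, signals under the 20th percentile of an array (a relative signal of 0.210 to 0.224) were set to that floor, and a probe set counted as higher or lower at 2-fold or more. All members were kept in every count. The 95th percentile of the 13 negative control probe sets was higher, at 0.456 and 0.250 for KIN28 at 0 and 60 min and 0.568 and 0.532 for POG1. For a named probe set whose dimmer signal lay under that level of its array, the fold is a bound against the level, written as at least. The counts use the lower floor. The label check held: the KIN28 probe set read 71.9 before and 64.9 after lithium where KIN28 was overexpressed, and 1.16 and 0.873 where POG1 was. The POG1 probe set read 0.219 and 0.196 with KIN28 and 58.2 and 75.1 with POG1.

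The LTR classes differed widely in signal. The median relative signal of the 30 Ty2 delta sets was 3.56 before and 5.37 after lithium with KIN28, and 5.44 and 8.24 with POG1. The 322 Ty1 delta sets had medians of 0.272, 0.378, 0.360 and 0.446 in the same order, below the middle of every array. Sigma medians were 0.450, 0.757, 0.977 and 0.757, and tau medians were 0.528, 0.724, 0.708 and 0.812. Omega was the dimmest class, with medians of 0.0304, 0.0596, 0.0426 and 0.0916, all under the floor. The 81 probe sets for full-length Ty elements, 50 of them of Ty1 and 15 of Ty2, had pooled medians of 6.53, 12.2, 10.4 and 16.5. By class, full-length medians were above those of the LTR sets on every array for Ty1 and Ty2 only. The 5 full-length Ty3 sets had medians of 0.217, 0.250, 0.151 and 0.591, and the 6 of Ty4 had 0.370, 0.470, 0.363 and 0.627. These, and the medians of the 5 of Ty5, were below those of the LTR sets of their class. Probe sets differ in probes and affinity, so these levels describe the probe sets and do not rank RNA amounts.

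**Figure D1:**
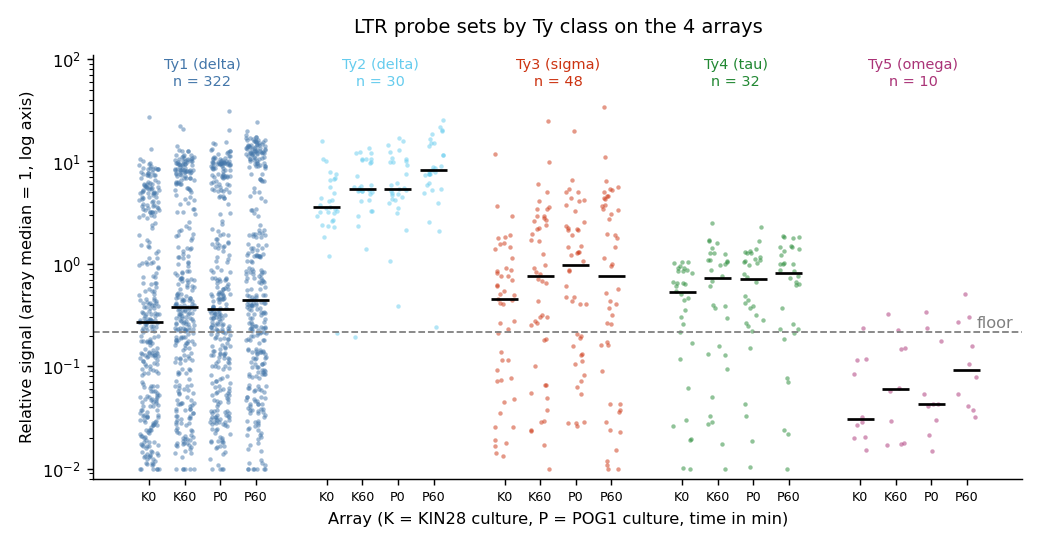
Relative signal (array median = 1, log axis, values under 0.01 drawn at 0.01) of every LTR probe set on the 4 arrays, grouped by Ty class; points are probe sets, black bars are medians and the dashed line is the mean floor. Ty2 sets lie mostly above 1, Ty1 sets spread from far under the floor to above 10, and 7 of the 10 Ty5 sets are under the floor on all 4 arrays.

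Of the 442 members, 218 were above the floor on all 4 arrays and 83 on none. In Ty1 these counts were 142 and 63, in Ty2 29 and 0, in Ty3 27 and 9, in Ty4 20 and 4, and in Ty5 0 and 7. The level followed the kind of probe set. Affymetrix marks with _f_at a set whose probes match a sequence family, and the 267 such LTR sets had medians of 1.04, 2.33, 2.13 and 2.90. The 91 plain _at sets, designed to be unique, had medians of 0.0825, 0.121, 0.151 and 0.149. All 30 Ty2 sets were family sets, against 181 of the 322 Ty1 sets. A family set can hybridise to RNA of many copies, full-length Ty RNA included, so members of a class are not independent readings of separate loci. The 250 members on the W strand and the 192 on the C strand had medians of 0.326 and 0.298 in the KIN28 culture at 0 min, and 0.676 and 0.536 in the POG1 culture at 60 min.

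The brightest Ty1 member was a shared set of YERWDELTA18 (3310_s_at), with relative signals of 27.3, 22.3, 30.8 and 8.88 for KIN28 at 0 and 60 min and POG1 at 0 and 60 min. The platform annotation lists that set with the open reading frame YDR034C-A. YERCDELTA23 read 10.04, 20.6, 20.4 and 24.2, and YGLWDELTA9, listed with the haem-responsive activator gene HAP1, read 13.3, 11.6, 15.5 and 17.1. The first of these was lowest in the POG1 culture at 60 min, where the second and the third were highest.

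In Ty2, YLRWDELTA22 read 15.9, 13.6, 16.8 and 21.8, YGRWDELTA28 read 7.49, 12.2, 15.7 and 20.1, and YLRWDELTA23 read 10.2, 10.6, 13 and 16.5. All 3 were highest in the POG1 culture at 60 min. In Ty4, YGRCTAU3 read 1.04, 1.66, 2.29 and 1.86, YNLWTAU2 read 0.905, 2.53, 1.66 and 1.83, and YBLWTAU1 read 0.870, 1.06, 1.41 and 1.47. These tau sets were lowest in the KIN28 culture at 0 min. In Ty5, the brightest set, YERWOMEGA2, read 0.0285, 0.325, 0.342 and 0.513.

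LTR signals were higher after 60 min in lithium more often than lower, and in the KIN28 culture few were lower. There, 69 members were at least 2-fold higher at 60 min and 4 lower, against 11.4% higher and 10.9% lower over all probe sets. That is 15.6% and 0.905% of the members. The share of increases depended on the kind of probe set. It was 20.6% of LTR family sets against 23.7% of family sets of no Ty, and 7.69% of plain LTR sets against 10.5%. For the 61 LTR sets marked _i_at it was 11.5%, above the 6.88% of such sets of no Ty. For the 16 marked _s_at it was 0% against 13.2%, and for the 7 marked _r_at 0% against 1.96%. For decreases the shares of family and plain sets were 0.749% against 18.3%, and 1.1% against 10.5%. A set under the floor at 0 min cannot count as lower. On the KIN28 0 min array 78.7% of LTR family sets were above the floor, against 81.3% of family sets of no Ty. For plain sets this was 26.4% against 82.1%, so the floor limited their decreases by construction. In the POG1 culture 52 members were higher and 35 lower, or 11.8% and 7.92%, against 11.9% and 12.8% over all probe sets, so the share that rose was at the background there. The median log2 difference was 0.32 in the KIN28 culture and 0.14 in the POG1 culture, beside 0.09 and 0.04 over all probe sets. With the arrays left unscaled, the POG1 split was 28 higher and 44 lower, against 663 and 1949 of all probe sets. In RNA from whole cultures, fewer cells with a transcript and less of it per cell cannot be told apart.

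Before lithium, LTR signals were more often lower than higher in the KIN28 culture, compared with the POG1 culture. At 0 min, 7 members were higher and 69 lower with KIN28 (1.58% and 15.6%), against 4.93% and 5.26% of all probe sets. The median log2 difference was -0.36. It was -0.57 for family sets and -0.004, the value at the floor on both arrays, for the 175 other LTR sets. Lower were 18.7% of LTR family sets against 10.1% of those of no Ty, and 7.69% of plain LTR sets against 4.24%. For _i_at, _s_at and _r_at sets the shares were 13.1%, 18.8% and 14.3%, against 5.82%, 6.90% and 5.88%. At 60 min, 22 were higher and 39 lower, against 6.35% and 5.69%, with a median of -0.19. The 60 min split was 16 to 53 when arrays were scaled on the median of the probe sets that passed the floor everywhere, 13 to 66 with 75th percentile scaling and 30 to 29 without scaling. Over all probe sets these splits were 432 to 681, 388 to 762 and 895 to 353. For the difference of the responses, KIN28 minus POG1, 60 members were higher and 30 lower, against 9.04% and 8.92%. That split was 45 to 35 with 75th percentile scaling and 160 to 12 without scaling. Over all probe sets it was 631 to 1046 and 3167 to 260.

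The KIN28 rise and the KIN28 deficit at 0 min both use the KIN28 array at 0 min, so they are not separate evidence. That array gave the lowest of the 4 relative signals for 251 of the 442 members, or 56.8%, against 26.0% of all probe sets. The share was 87.7% for full-length Ty sets and 38.5% for the 257 family sets of no Ty. The same array had the highest ribosomal RNA control signals, with summed relative signals of 52.1 for 18S against 5.08, 8.57 and 2.37 on the KIN28 60 min, POG1 0 min and POG1 60 min arrays. For 25S these were 148 against 32.3, 103 and 7.90. Its 3'/5' signal ratio was 7.50 for SRB4, against 4.32, 3.70 and 4.65, and 1.92 for ACT1, against 1.31, 1.66 and 1.73, while that of SPT15 was 2.79, between 2.34 and 3.83 on the other arrays. The part of these values in the LTR differences was not tested. The POG1 response and the 60 min comparison of cultures do not use that array.

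**Figure D2:**
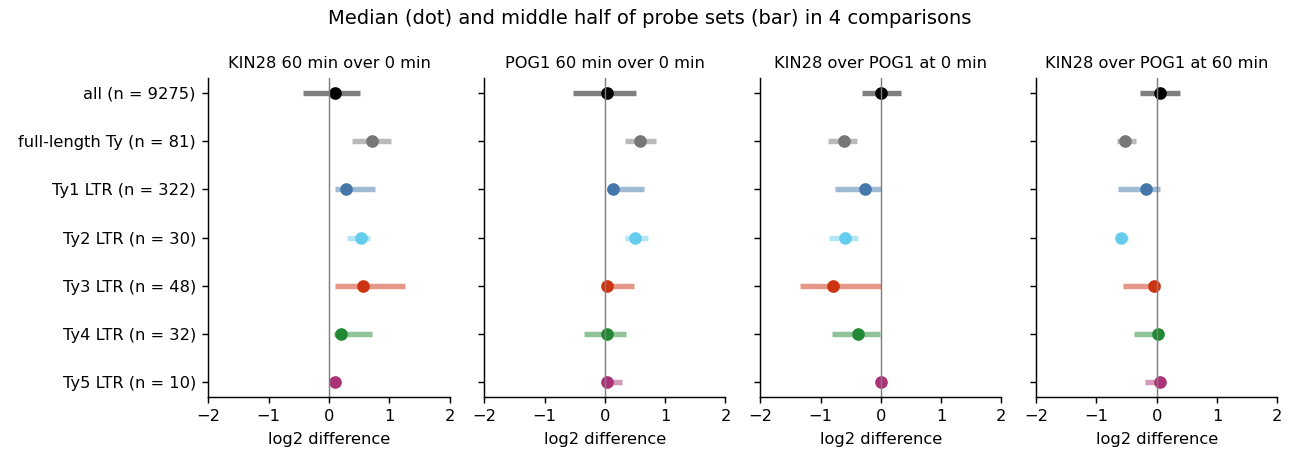
Log2 differences in 4 comparisons for all probe sets, full-length Ty sets and the LTR sets of each Ty class; dots are medians and bars run from the lower to the upper quartile of probe sets. The Ty3 medians are 0.56 in the KIN28 response and -0.79 at 0 min. Its medians of 0.04 in the POG1 response and -0.04 at 60 min are set by probe sets at the floor. Those of the sets above it on at least 1 array are 0.33 and -0.44, a filter that keeps sets passing only on the array where they are high.

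Delta LTRs, 79.6% of the members, made up 68.1% of the KIN28 increases and 80.8% of the POG1 increases. In Ty1, 43 sets were higher and 4 lower over 60 min in the KIN28 culture, and 40 were higher and 27 lower in the POG1 culture. The increases were 13.4% and 12.4% of the Ty1 sets, near the 11.4% and 11.9% of all probe sets. The decreases were 1.24% and 8.39%, against 10.9% and 12.8%. In Ty2, 4 were higher and 0 lower with KIN28, and 2 and 0 with POG1, so that increases were 13.3% and 6.67%. The bright delta family sets had similar differences. For the 107 Ty1 and Ty2 family sets with a mean relative signal above 4, the median log2 difference was 0.62 in the KIN28 response and 0.52 in the POG1 response. Their quartiles were 0.39 to 0.83 and 0.34 to 0.68. The cultures differed by a median of -0.66 at 0 min and -0.58 at 60 min, and 102 of these 107 sets were highest in the POG1 culture at 60 min. The 104 Ty1 and Ty2 family sets at or below 4 were less alike. Their medians were 0.34, 0.34, -0.23 and -0.16 in the same comparisons. Quartiles of their responses were 0.09 to 0.92 with KIN28 and -0.10 to 0.93 with POG1, and 53 were highest in the POG1 culture at 60 min. Full-length Ty sets had medians of 0.72, 0.59, -0.61 and -0.53 in these comparisons.

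Single delta elements moved further. YGRCDELTA12 (3276_i_at) read 0.0191 and 0.958 with KIN28 and 0.207 and 0.199 with POG1, at least 2.10-fold higher over 60 min with KIN28. Only the KIN28 60 min array was above the floor for that set. The other set of YGRCDELTA12, 3277_f_at, fell 2.11-fold with KIN28 and 2.00-fold with POG1. YHRWDELTA13 (3175_i_at) fell with KIN28, from 0.921 to 0.0192 or at least 3.69-fold, and read 0.0192 and 0.334 with POG1. A second set of YHRWDELTA13, 3176_f_at, was higher at 60 min with KIN28, by a log2 change of 1.03. YPLCDELTA10 fell from 0.550 to 0.220, at least 2.20-fold. In the POG1 culture the largest increases over the floor were those of YCLWdelta2b, from 0.0451 to 1.44 or at least 2.55-fold, YERWDELTA11, from 0.0287 to 1.42 or at least 2.51-fold, and YLRWDELTA20, from 0.0523 to 1.27 or at least 2.23-fold. YMRWDELTA17 rose from 0.221 to 1.24, at least 2.18-fold, and YCRWDELTA11 from 0.252 to 1.35, at least 2.38-fold. Against the lower floor these bounds would be 5.38-fold to 6.85-fold, so their size depends on the level taken as background.

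YMRCDELTA11 (3674_i_at) read 1.05 and 1.79 with KIN28 and fell at least 3.01-fold with POG1, from 1.60 to 0.360. A second set of the same element, 3676_f_at, fell at least 2.88-fold, from 1.53 to 0.396, while the third, 3675_r_at, read 0.0722 and 0.568. YERWDELTA17 fell at least 2.77-fold, from 1.47 to 0.381, and YERWDELTA18 (3310_s_at) fell 3.47-fold, from 30.8 to 8.88. YDRWDELTA12 read 0.676 and 0.181 with POG1, at least 3.12-fold lower against the floor but 1.27-fold against the negative-control level.

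YGLWDELTA4 (3258_f_at) stood lower in the KIN28 culture at both times. It read 0.130 and 0.278 with KIN28 and 1.47 and 1.96 with POG1, at least 3.22-fold lower at 0 min and 7.03-fold lower at 60 min. At 60 min YILCDELTA5 was at least 6.09-fold and YCRWDELTA11 at least 5.42-fold lower with KIN28. At 0 min the KIN28 and POG1 signals were 0.544 and 0.221 for YMRWDELTA17 and 0.468 and 0.0451 for YERWDELTA7, and neither was 2-fold apart against the negative-control level. At that level 0 LTR sets were higher with KIN28 at 0 min.

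Among the classes, sigma had the largest share of sets higher in the KIN28 response, 37.5%, and lower with KIN28 at 0 min, 41.7%; both comparisons use the KIN28 0 min array. Of the 48 Ty3 sets, 18 were higher and 0 lower over 60 min in the KIN28 culture, with a median log2 difference of 0.56. Shares over all probe sets were 11.4% and 10.9%. In the POG1 culture 6 were higher and 6 lower, 12.5% each, near the 11.9% and 12.8% of all probe sets. The POG1 median was 0.04, the value of sets at the floor on both arrays. For sets above the floor on at least 1 array of the comparison, the medians were 1.01 with KIN28 and 0.33 with POG1. That filter keeps sets that pass only on the array where they are high and drops those at the floor on both. These medians therefore describe the sets kept, and no median over all probe sets under that filter is given. In the POG1 response Ty2 had the larger class median, 0.50. Of the 18 increases with KIN28, 17 were family sets, and 0 of the 4 plain sigma sets were higher. The 17 were 48.6% of sigma family sets, against 23.7% of family sets of no Ty. At 0 min 0 were higher and 20 lower with KIN28, against 4.93% and 5.26% of all probe sets. At 60 min 4 were higher and 3 lower, or 8.33% and 6.25%, near the 6.35% and 5.69% of all probe sets. For the difference of the responses 17 were higher and 2 lower (35.4% and 4.17%, against 9.04% and 8.92%), with a median of 0.57. That result depended on the floor and the scaling: the median was -0.01 with a floor at the 40th percentile, 0.04 at each array's negative-control level and 1.28 without scaling, with 10, 11 and 28 sets higher. The platform annotation lists 20 of the sigma sets with YGR109W-B, the Gag-Pol gene of Ty3; this division was chosen after the values were seen. Those 20 had medians of 0.834 and 2.32 with KIN28 and 2.16 and 3.40 with POG1, and 12 were higher and 0 lower over 60 min with KIN28. The other 28 had medians of 0.126, 0.261, 0.203 and 0.168, and 6 were higher and 0 lower.

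**Figure D3:**
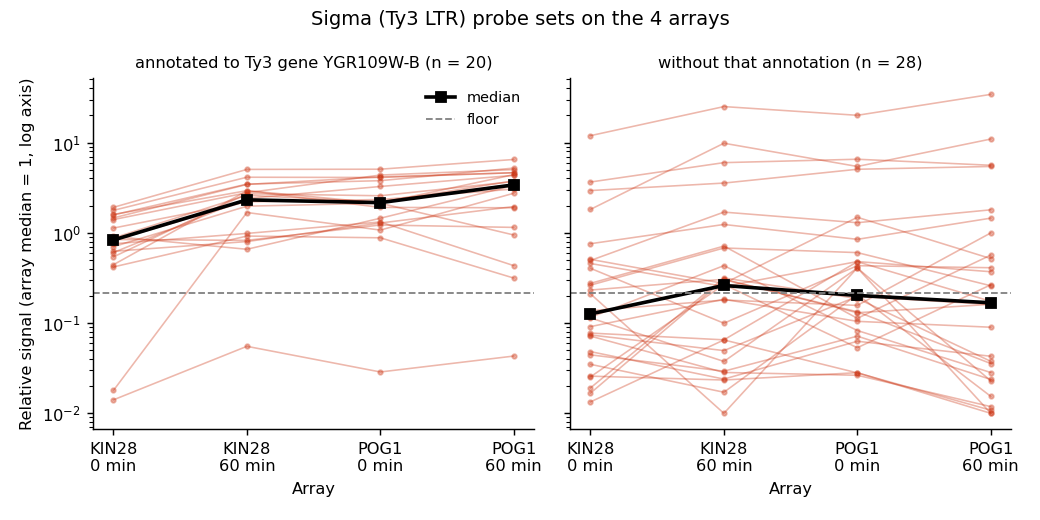
Relative signal (array median = 1, log axis, values under 0.01 drawn at 0.01) of the 48 sigma probe sets on the 4 arrays, divided by whether the annotation lists them with the Ty3 gene YGR109W-B; thin lines join the values of 1 probe set, squares are medians and the dashed line is the mean floor. In the annotated group the median is 0.834 on the KIN28 0 min array and 2.16 or more on the other arrays.

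YERCSIGMA4 was the brightest sigma element, and both its family sets were higher at 60 min in both cultures. The brighter set, 3315_f_at, read 11.9, 25.0, 20.1 and 34.2 for KIN28 at 0 and 60 min and POG1 at 0 and 60 min, 2.10-fold higher over 60 min with KIN28 and 1.70-fold with POG1. The other, 3316_f_at, read 1.82, 9.84, 5.43 and 10.9, or 5.41-fold and 2.01-fold higher. YDRCSIGMA2 (3448_s_at), listed with the protein phosphatase gene PPT1, read 3.66, 5.99, 6.54 and 5.61. All 3 sets were lowest on the KIN28 0 min array.

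The other large sigma increases in the KIN28 culture had the same low array. YDRWSIGMA5 read 0.0179, 1.68, 1.07 and 2.74, at least 3.68-fold higher over 60 min with KIN28 and 2.56-fold with POG1. YPRWSIGMA3 (3536_f_at) read 0.443, 2.92, 1.91 and 1.89, at least 6.41-fold higher with KIN28 and level with POG1. YGRWSIGMA6 read 0.541, 2.71, 2.58 and 3.70, and YNLWSIGMA3 read 0.605, 2.40, 3.26 and 4.34; they were 5.0-fold and 3.97-fold higher with KIN28. At 0 min YNLWSIGMA3 was 5.39-fold, YDRWSIGMA5 at least 2.35-fold and YGRWSIGMA6 4.76-fold lower with KIN28 than with POG1. YLRWSIGMA4 read 0.157 and 0.998 in the POG1 culture, at least 4.73-fold higher against the floor and 1.76-fold against the negative-control level, with 0.137 and 0.180 in the KIN28 culture.

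Of the 32 Ty4 sets, 4 were higher and 0 lower over 60 min with KIN28, and 4 were higher and 2 lower with POG1. Those increases, 12.5% of the tau sets in each culture, were near the 11.4% and 11.9% of all probe sets. At 0 min 0 were higher and 2 lower with KIN28, or 0% and 6.25% against 4.93% and 5.26% of all probe sets. At 60 min 2 were higher and 3 lower, or 6.25% and 9.38% against 6.35% and 5.69%. YHRWTAU3 was at least 2.36-fold higher with KIN28 at 60 min, reading 0.448, 1.25, 0.481 and 0.233. YPRCTAU3 was at least 5.39-fold lower there, reading 0.303, 0.131, 0.413 and 1.35. None of the 10 Ty5 sets, 7 of them under the floor on every array, differed 2-fold in any of the 5 comparisons.

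The responses of the cultures share no array, and 17 members were at least 2-fold higher in both, or 24.6% of the KIN28 increases and 32.7% of the POG1 increases. With each array's negative-control level as the floor, 9 of the 17 were still 2-fold higher in both. Over all probe sets 512 were higher in both, or 48.6% and 46.3%. The 17 held 13 delta, 3 sigma and 1 tau sets. YKRCDELTA8 was the brightest delta set among them, reading 3.55 and 8.29 with KIN28 and 7.30 and 15.9 with POG1. YBRWDELTA13 read 3.38 and 7.39, then 5.27 and 10.6, and YCRCDELTA7 read 0.334 and 1.33, then 0.601 and 1.93. YNRCTAU3 was the tau set, with 0.257 and 0.680, then 0.441 and 1.01. YGRCDELTA12 (3277_f_at) and YJLWDELTA15 were lower in both, the second from 0.492 to 0.227 and from 0.940 to 0.229; against the negative-control level the second was not 2-fold lower in either culture.

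**Figure D4:**
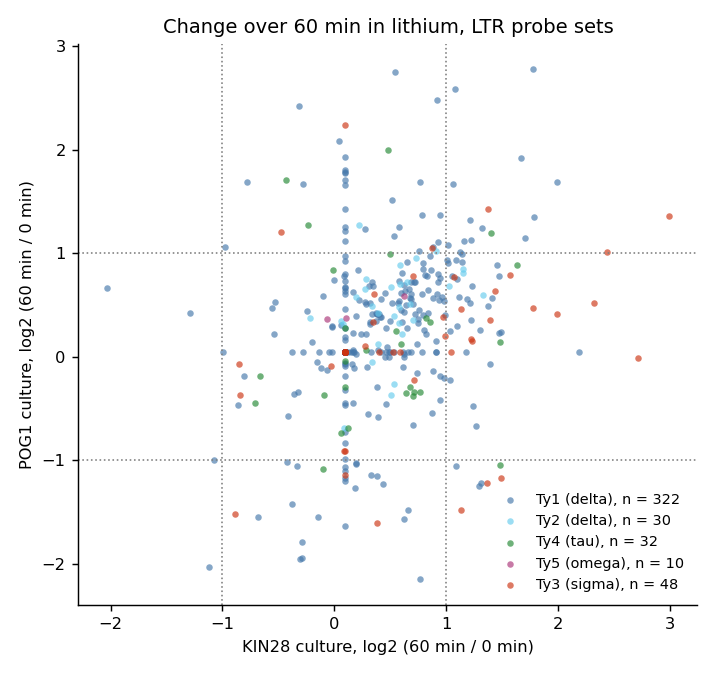
Log2 change over 60 min in lithium in the KIN28 culture (x axis) against the POG1 culture (y axis) for the 442 LTR probe sets, coloured by Ty class; dotted lines mark 2-fold. The column of points near 0.09 on the x axis holds sets at the floor on both KIN28 arrays. Beyond 2-fold up in KIN28 and down in POG1 lie 7 sets, a count not made over all probe sets.

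Probe sets of the same element did not always move alike, which bears on how far a single set can be read. Of the elements, 305 had 1 set, 54 had 2, 7 had 3 and 1, YERWDELTA18, had 7. For the 36 pairs of sets in 14 elements whose mean signals were above the floor, the changes were at least 2-fold apart in 9 pairs in the KIN28 response and 15 in the POG1 response, and in 7 and 17 for the cultures at 0 and 60 min. YERWDELTA18 alone gave 21 of the 36 pairs, of which 3 were apart in the KIN28 response and 8 in the POG1 response, against 6 and 7 of the 15 pairs of the other 13 elements. From these pairs the spread of 1 probe set was 0.75, 1.09, 0.60 and 1.09 on the log2 scale in that order. YERWDELTA18 ranged from 3310_s_at, above, to 3311_f_at, which read 3.72 and 5.54 with KIN28 and 5.44 and 9.04 with POG1, and 3308_s_at, which read 0.0950 and 0.323, then 0.574 and 0.573. The sets fell and rose within 1 element. Different probes and cross-hybridising copies enter this spread, and it is not a replicate error.

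**Figure D5:**
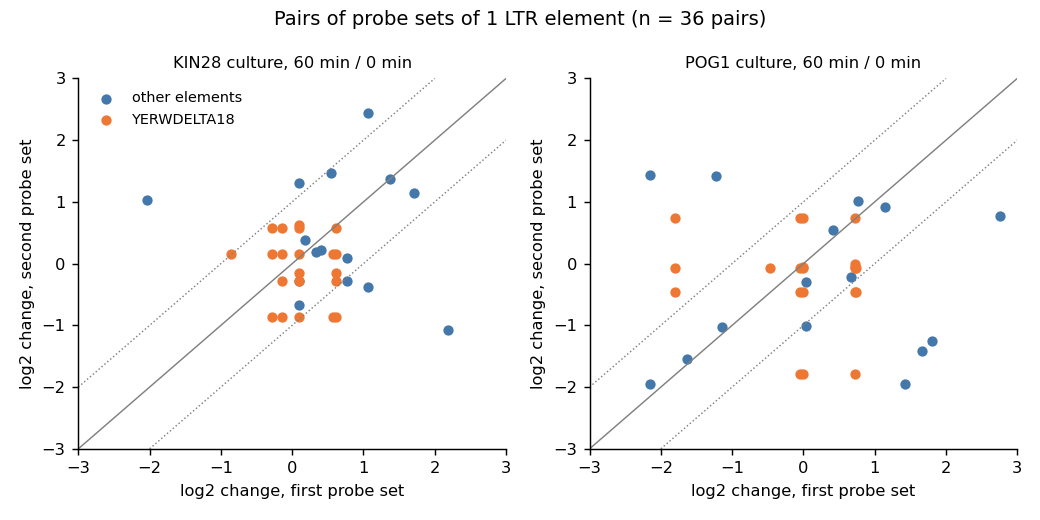
Log2 change over 60 min of the first against the second probe set for 36 pairs of probe sets of the same LTR element, in the KIN28 culture (left) and the POG1 culture (right); the solid line marks equal change and dotted lines mark 2-fold apart. Of the pairs, 9 lie at or beyond the dotted lines in the KIN28 culture and 15 in the POG1 culture.

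Genes that act on Ty elements were near or below the background share in both responses. Of 40 measured host factors of Ty transcription, RNA or integration, 1 was at least 2-fold higher and 4 lower over 60 min with KIN28, and 5 were higher and 1 lower with POG1. That is 2.5% and 10% against 11.4% and 10.9% of all probe sets, and 12.5% and 2.5% against 11.9% and 12.8%. TEC1, the activator that binds Ty1 with Ste12, read 3.61 and 1.16 with KIN28 and 1.51 and 0.889 with POG1, a log2 change of -1.64 and -0.76. SPT15, the TATA-binding protein, read 6.75 and 1.62, then 7.57 and 3.84. The activator gene RAP1 and the elongation factor gene SPT5 were lower with KIN28, by log2 changes of -1.18 and -1.24, and SPT10, which acts on histone genes, was higher by 1.59 from a signal at the floor. In the POG1 response SWI3 of SWI/SNF, SPT8 of SAGA, SPT21, the bromodomain gene BDF1 and the TFIIIC gene TFC3 were higher, by log2 changes of 1.32, 1.28, 1.30, 1.04 and 1.13. SNF6, also of SWI/SNF, was lower by a log2 change of -1.09.

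At 0 min 4 of the 40 were higher and 3 lower with KIN28, or 10% and 7.5% against 4.93% and 5.26%. TEC1, SPT21, BDF1 and TFC3 were higher, and the pheromone and filamentation kinase gene KSS1, SPT10 and the ubiquitin-conjugating enzyme gene RAD6 were lower. At 60 min 3 were higher and 2 lower, or 7.5% and 5%, near the 6.35% and 5.69% of all probe sets. SNF6, SPT10 and the RNA helicase gene DHH1 were higher, and SWI3 and SPT15 lower. For the difference of the responses 3 were higher and 9 lower, or 7.50% and 22.5% against 9.04% and 8.92% of all probe sets, among them the glycolytic activator gene GCR1, at -1.03, and SPT20 of SAGA, at -1.46. The marker genes of α cells STE3, MF(ALPHA)1, MF(ALPHA)2 and SAG1 were all at least 2-fold lower at 60 min in both cultures. MF(ALPHA)1, an α-factor gene, read 53.9 and 19.4 with KIN28 and 54.6 and 5.32 with POG1. The a-cell markers STE2, MFA1, MFA2, BAR1, STE6 and AGA2 were at 1.35 or less on every array, and AGA2 was at the floor throughout. Of these 6, MFA2 and STE6 were at least 2-fold higher at 60 min with KIN28, and STE6 with POG1.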

How the data were processed

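The deposited files give, per the file headers, a linear intensity for each probe set and a ratio, in which the authors divided it by a constant that equals the array median; the summary software is not given in the sources used here. Per the labels' protocols, poly(A) RNA was enriched and labelled with biotin. The deposited files hold no detection calls. The members and lists were chosen with earlier results of these data known.

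Intensity was divided by the array median over all 9335 probe sets, controls included. It was floored at the 20th percentile of each array over the same sets and compared on the log2 scale. Pairs under the floor on both arrays take the difference of the floors. With 1 array per group no test was run, and the number of arrays limits the precision. Named probe sets were the 3 brightest per class, the largest differences per comparison, those shared by both responses and elements with several sets; the text gives most of them. The host factor list had 40 genes. Gene names came from the platform annotation, which listed 54 of the 442 members. Sequences and positions of the repeats were not analysed here. Steps were tested on simulated data. Python 3.11.15, numpy 2.4.6, pandas 2.3.3 and matplotlib 3.10.9 were used.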

Additional observations from a re-analysis of the deposited data

Results flagged for a closer look

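In 7 LTR probe sets the signal was at least 2-fold higher at 60 min in the KIN28 culture and at least 2-fold lower in the POG1 culture; 0 moved the opposite way. Such opposite moves were not counted over all probe sets, so these counts have no background share beside them. With 1 array per group, the difference was not tested. The KIN28 response minus the POG1 response, on the log2 scale, was 2.53 for YHRWTAU3, 2.55 for YGRWDELTA19, 2.53 for YGRCDELTA20, 2.66 for YERCSIGMA3, 2.62 for YDRCSIGMA1, 2.15 for YORCDELTA18 and 2.59 for YLRWSIGMA3 (3744_i_at). YERCSIGMA3 was the brightest, with relative signals of 0.702 and 1.97 with KIN28 and 2.13 and 0.946 with POG1. YDRCSIGMA1 read 0.419 and 0.921, then 0.881 and 0.315. The other 5 sets had at least 1 value near or under the floor. With each array's negative-control level as the floor, 1 of the 7, YERCSIGMA3, was still 2-fold in both directions. A second set of YLRWSIGMA3, 3745_f_at, was higher in both cultures, with 0.276 and 0.713, then 0.113 and 0.567. The YGRWDELTA19 set above was 3245_f_at. Its other set, 3244_i_at, had log2 changes of 0.09 with KIN28, the value at the floor on both arrays, and 1.81 with POG1. For YORCDELTA18 (3613_i_at), the other set, 3614_f_at, had 1.18 with KIN28 and 0.04 with POG1.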

How the results depend on the processing

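Counts are of LTR probe sets at least 2-fold higher and lower. Under scaling on the median of the probe sets that passed the floor everywhere, quantile normalization and the series-wide table, all 10 counts stayed within 1.5 times the main ones. With 75th percentile scaling the 60 min cultures gave 13 higher and 66 lower, against 388 and 762 of all probe sets. Unscaled arrays gave 149 and 1 for the KIN28 response, 28 higher for POG1, 1 and 200 at 0 min, and 160 and 12 for the difference of the responses. Over all probe sets the unscaled counts were 1962 and 567, 663 and 1949, 124 and 1751, and 3167 and 260 in that order. The next counts follow the order KIN28 response, POG1 response, cultures at 0 min, cultures at 60 min and difference of the responses. With no floor they were 146 and 57, 92 and 85, 46 and 142, 78 and 94, and 126 and 77. All probe sets gave 1707 and 1642, 1683 and 1862, 1030 and 1158, 1242 and 1184, and 1582 and 1491. With a floor at the 40th percentile they were 37 and 0, 23 and 13, 0 and 41, 5 and 16, and 25 and 9. For all probe sets these were 659 and 660, 608 and 792, 129 and 181, 231 and 157, and 311 and 276. With a floor at each array's negative-control level they were 44 and 3, 31 and 16, 0 and 46, 6 and 187, and 29 and 25. All probe sets then gave 763 and 966, 678 and 854, 146 and 228, 283 and 2328, and 401 and 610. The negative-control levels were 0.456 and 0.250 for KIN28 at 0 and 60 min and 0.568 and 0.532 for POG1. By construction, a set under both levels at 60 min therefore counts as more than 2-fold lower with KIN28. One pooled level of 0.494, chosen after seeing the data for that reason, gave 42 and 0, 33 and 16, 0 and 46, 6 and 22, and 30 and 14. Its counts for all probe sets were 734 and 748, 741 and 883, 176 and 213, 296 and 238, and 385 and 402. Sets above the floor on every array compared gave 54 and 2, 33 and 24, 2 and 51, 14 and 20, and 31 and 5; above it on at least 1 array, 18 were lower for the difference. Plain _at sets gave 7 and 1, 10 and 7, 0 and 7, 3 and 9, and 7 and 9, so the difference of the responses leaned the other way there. A 1.5-fold threshold gave 163 and 15, 121 and 45, 10 and 170, 46 and 125, and 108 and 51. For all probe sets it gave 2082 and 1844, 2081 and 2174, 1277 and 1389, 1509 and 1314, and 1924 and 1597. A 3-fold threshold gave 13 and 1, 21 and 7, 1 and 14, 4 and 18, and 21 and 16. Its counts for all probe sets were 359 and 416, 457 and 494, 107 and 100, 142 and 160, and 259 and 316. One value per element, also chosen after seeing the data, gave 54 and 1, 41 and 20, 3 and 50, 13 and 23, and 38 and 18. No matching counts over all probe sets are given for the floor filters, the plain sets and 1 value per element. Thresholds, floors and subsets change the counts by construction; the cause of the other shifts was not tested. The KIN28 response had more increases than decreases, and the cultures at 0 min more decreases than increases, under every alternative listed here. Unscaled, all probe sets leaned the same way in both comparisons. They also did so, by less, in the main setting, the series-wide table, with no floor and at 1.5-fold. The direction alone in those settings is not particular to the LTR sets. No paired analysis was possible because no group has a second array, so that replicate numbers pair nothing and none could be left out; a fit of time with the cultures as blocks, which leaves 1 residual degree of freedom, was not run.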
